A study of Mus musculus with 6 samples.

Results

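Heat shock factor 1 (HSF1) and the inducible chaperones of the cytosol were examined in B16F10 cells depleted of OSGEP. The set holds 10 genes, chosen by name: Hsf1 itself, the HSP70 genes Hspa1a, Hspa1b and Hspa8, their partners Bag3, Dnajb1 and Hsph1, the HSP90 genes Hsp90aa1 and Hsp90ab1, and the small heat shock gene Hspb1. All 10 were found among the 55487 genes of the count table, and 9 of them carried enough counts to be tested, as did 12669 genes in all. The exception was Hspa1a, which had no count in any of the 6 libraries.

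B16F10 is a melanoma cell line of C57BL/6 mouse origin. OSGEP, an enzyme of the KEOPS complex, catalyses the addition of t6A next to the anticodon of tRNAs. Its depletion was compared with control cells because the study asked how loss of t6A affects protein homeostasis. Control cells (shCtr, n = 3, genotype labelled WT) carried a scramble shRNA, and depleted cells (shOSGEP, n = 3, genotype labelled KD OSGEP) carried the hairpin numbered OSGEP#2. Both groups were infected with lentivirus, selected with puromycin and sequenced as polyA RNA from 3 separate infections, so that the depleted group rests on 1 hairpin in 1 cell line. No heat or other stress is described for these cultures.

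The heat shock response is the main transcriptional answer of the cytosol to misfolded protein. In resting cells HSF1 is held inactive by chaperones. When unfolded protein occupies those chaperones, HSF1 forms trimers, binds heat shock elements (inverted repeats of the unit GAA) and switches on the inducible HSP70, HSP40, HSP110, HSP90 and small heat shock genes together with the co-chaperone BAG3. HSF1 is regulated mainly as a protein, and its own mRNA is a poor measure of its activity, whereas the mRNAs of its targets are the usual readout of the response.

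Promoter sequences are shown here because HSF1 acts on the inducible members through heat shock elements. RefSeq promoters (GRCm38.p6, 250 bases before to 50 bases after a start) were at hand for 6 of the 10 members, namely Bag3, Hspa1a, Hspa1b, Hsph1, Dnajb1 and Hspb1. A head-to-head or tail-to-tail pair of units, spelled GAANNTTC or TTCNNGAA each reading the same on both strands, was found in 5 of the 6 genes, all but Dnajb1, against 15.1% of 32851 promoters of the same length. The run of 3 units, GAANNTTCNNGAA or TTCNNGAANNTTC, which contains 2 overlapping pairs, was found only in Hsph1, against 0.603% of those promoters. Below, the matched letters are in capitals with up to 8 bases on either side, 5′ to 3′ on the strand of the gene. The window of Bag3 ends where the RefSeq promoter ends.
Hspa1a, chr17:34972245-34972268, minus strand: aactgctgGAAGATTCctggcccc
Hspa1b, chr17:34959327-34959350, minus strand: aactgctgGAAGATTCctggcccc
Hspb1, chr5:135887794-135887817, plus strand: caacaagaGAAGTTTCcagatggg
Hspb1, chr5:135887814-135887837, plus strand: tgggggcaGAACCTTCctggcccc
Hsph1, chr5:149636280-149636308, minus strand: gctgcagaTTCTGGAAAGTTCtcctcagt
Hsph1, chr5:149636354-149636377, minus strand: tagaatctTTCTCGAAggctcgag
Bag3, chr7:128523617-128523632, plus strand: tgggaccaGAAGTTTC
The Hspa1a and Hspa1b windows are letter for letter the same, and their whole promoters are identical at 296 of 300 bases (98.7%). In both, the pair starts at -104 from the start site. The pairs of Hspb1 start at -117 and -97, and that of Bag3 lies downstream of the start, at 42. Hsph1 has 2 listed starts: its pair and its run of 3 units begin at -54 and 15 counted from one of them, and at -33 and 36 counted from the other. Such a match is a description of letters and was not tested as a binding site.

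The libraries held 18915587 to 29487384 counts, which puts 3 counts, taken as the floor of detection, at 0.116 to 0.147 CPM (counts relative to the size of the library as rescaled by TMM). The floor covers counting error only. Osgep, the targeted gene, was at 20.6, 58.6 and 21.8 CPM in shCtr replicates 1, 2 and 3, the order kept for every gene that follows, against 4.28, 0.542 and 5.52 CPM in shOSGEP replicates 1, 2 and 3, a Log2FC of -3.29 (SE 0.876, unadjusted p = 0.00524, adjusted p = 1.00 by edgeR), with no overlap between the groups. The libraries of replicate 2 stood apart in both groups. shCtr replicate 2 had a TMM factor of 0.690, against 1.04 to 1.14 in the other 5 libraries, and shOSGEP replicate 2 had the lowest Osgep. Markers of the melanocyte lineage were present, with a summed level of 17038 to 29599 CPM in shCtr and 3551 to 18083 CPM in shOSGEP over 7 of 7 genes, all 7 with a negative Log2FC, a median of -0.87, and a median same-numbered log2 ratio of -2.55 in replicate 2. Markers of leukocytes, keratinocytes and endothelium did not exceed 0.504 CPM, and those of fibroblasts did not exceed 4.07 CPM (Pdgfra). In RNA from whole cultures, fewer cells of one kind and less RNA per cell cannot be told apart.

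In the edgeR fit without a block, no member of the heat shock set was called between shOSGEP and shCtr, and the calls of Bag3 and Hsph1 made by other fits are given with those genes. At an adjusted p under 0.05 none was called, and neither was any gene of the whole table (0% of 12669 genes, edgeR quasi-likelihood F-test). At the threshold of the study, which asks for an absolute Log2FC above 0.5 and an unadjusted p below 0.05, 0 of the 9 tested members were called, against 2.02% of all genes (256). The smallest unadjusted p of a member was 0.0809, for Bag3, so 0 of 9 had an unadjusted p under 0.05. Every member's adjusted p was 1.00. With a common biological coefficient of variation of 0.566 and 3 libraries a group, these p-values do not show that the members were equal between groups. With a block for the replicate number, that coefficient was 0.385. At the threshold of the study, 0 members were then called, against 2.94% of all genes. The smallest unadjusted p-values of members in that edgeR fit were 0.0578 for Bag3, 0.0889 for Hsph1, 0.0916 for Hspb1 and 0.128 for Dnajb1.

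The direction of the estimates was uneven. shOSGEP had the lower fitted value in 7 of the 9 members and the higher in Hspa1b and Hspb1, with a median Log2FC of -0.47, against -0.03 over all genes. Compared within replicate numbers, 5 members (Hsf1, Bag3, Hsph1, Dnajb1 and Hspa8) were lower in 3 of 3 comparisons, against 17.2% of all genes, and 1 member (Hspb1) was higher in 3 of 3, against 17.6%. Most of the size came from replicate 2. The members' median log2 ratio of shOSGEP over shCtr was -0.23 in replicate 1, -0.78 in replicate 2 and -0.10 in replicate 3, against -0.03, 0.11 and -0.01 over all genes. Without both libraries of replicate 2 the median Log2FC of the members was -0.12, and without shCtr replicate 2 alone it was -0.11. In all 9 tested members the values of the groups overlapped, whereas 6.36% of all genes showed no overlap.

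**Figure D1:**
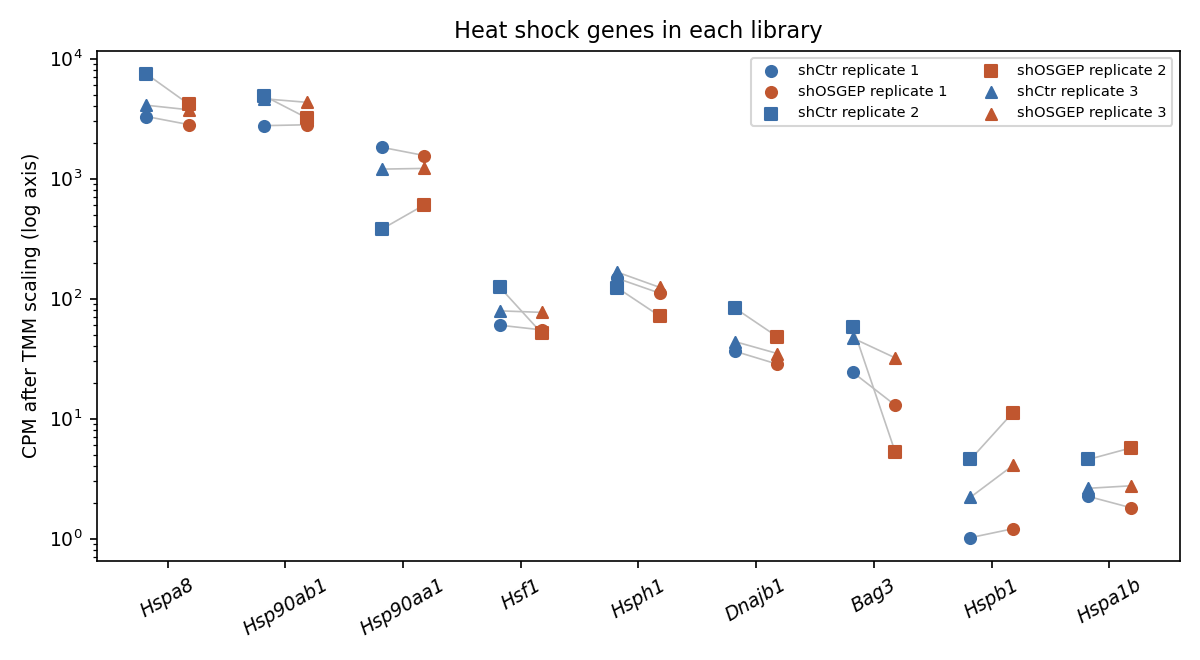
CPM after TMM scaling (log axis) of the 9 tested members in each of the 6 libraries, shCtr in blue and shOSGEP in orange, with grey lines joining libraries of the same replicate number. The groups overlap in every gene, and replicate 2 (squares) makes the steepest lines, as for Bag3 (58.4 to 5.31 CPM).

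Levels were first compared between members per transcript length, as TPM over the 6 libraries. Hspa8, the HSP70 that every cell makes without stress, was at 3368 ± 372 TPM (SD, n = 6), and Hsp90ab1, the constitutive HSP90, at 2971 ± 824 TPM. These neighbours were not separable, since Hspa8 was the higher in 4 of 6 libraries. Hsp90aa1, the stress-inducible HSP90, followed at 759 ± 446 TPM, below the range of Hsp90ab1. Together these 3 genes took 96.7% to 97.6% of the members' counts, and the whole set took 0.842% to 1.07% of a library.

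The regulator and the co-chaperones were far less abundant. Hsf1 was at 68.2 ± 14.6 TPM and Hsph1 at 67.4 ± 26.4 TPM, in either order in 3 of 6 libraries. Dnajb1 was at 28.6 ± 3.91 TPM and Bag3 at 22.3 ± 13.2 TPM, with Dnajb1 the higher in 4 of 6. Of the members with counts, the lowest means were those of the classic heat-inducible genes, Hspb1 at 8.10 ± 7.30 TPM and Hspa1b at 2.22 ± 0.762 TPM, whose ranges over the libraries overlapped although Hspb1 was higher in 6 of 6. Bag3 and Hspb1 also overlapped, with Bag3 the higher in 5 of 6 and Hspb1 the higher in shOSGEP replicate 2 (22.1 against 3.79 TPM). Constitutive Hspa8 thus exceeded inducible Hspa1b by a TPM ratio of 858 (shOSGEP replicate 2) to 1913 (shCtr replicate 2), with a median of 1769.

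Hsf1 (ENSMUSG00000022556, chromosome 15, 76477422 to 76501913, plus strand, 13 exons) encodes the transcription factor. It was at 60.2, 125 and 79.2 CPM in the controls, against 54.9, 51.3 and 76.9 CPM after depletion, from 1181 to 2548 counts. A single library, shCtr replicate 2, lay above all others, and the other 5 lay between 51.3 and 79.2 CPM. By TPM the same library did not stand out: the shCtr values were 64.4, 69.4 and 86.2 TPM and the shOSGEP values 64.4, 44.6 and 80.5 TPM. Means were 88.2 ± 33.5 CPM and 61.1 ± 13.8 CPM (SD, n = 3 each), a Log2FC of -0.53 (SE 0.435, edgeR unadjusted p = 0.256, exact permutation p = 0.2). The same-numbered log2 ratios were -0.13, -1.29 and -0.04, and the Log2FC was -0.08 without both libraries of replicate 2.

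Among the inducible HSP70 genes, Hspa1a (ENSMUSG00000091971, chromosome 17, 34969190 to 34972156, minus strand, 1 exon) had 0 counts in all 6 libraries, which allows up to 3 counts in each, or 0.116 to 0.147 CPM. Its neighbour Hspa1b (ENSMUSG00000090877, chromosome 17, 34956436 to 34959238, minus strand, 1 exon) encodes a nearly identical protein and took few counts. Of the 31-base words of Hspa1a transcripts 63.8% also occur in Hspa1b, and reads from the shared stretches can be assigned to either gene, so the 2 genes are best read as a sum. Since Hspa1a was at 0, the sum equals the value of Hspa1b. Gm20481, which overlaps Hspa1a on the opposite strand, was at 0 too. The antisense gene Gm10501 holds 12.1% of the words of Hspa1a and 11.1% of those of Hspa1b. It had 154 counts over all libraries, against 454 for Hspa1b, and these cannot be told apart by strand.

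Hspa1b was at 2.25, 4.57 and 2.63 CPM (53, 93 and 57 counts) in the controls, against 1.81, 5.70 and 2.76 CPM (39, 147 and 65 counts) after depletion. In each group replicate 2 was the highest and replicate 1 the lowest in CPM. By TPM replicate 3 was the highest of the controls, at 1.81, 1.90 and 2.15 TPM in shCtr. The means, 3.15 ± 1.25 and 3.42 ± 2.02 CPM (SD, n = 3 each), gave a Log2FC of 0.12 (SE 0.617, edgeR unadjusted p = 0.849, exact permutation p = 0.9). The sign was not stable: the Log2FC was -0.43 without shOSGEP replicate 2 and 0.49 without shCtr replicate 2.

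Bag3 (ENSMUSG00000030847, chromosome 7, 128523616 to 128546981, plus strand, 4 exons) encodes the nucleotide exchange factor that links HSP70 to selective autophagy, and it had the largest absolute Log2FC of the set. It was at 24.4, 58.4 and 47.0 CPM (574, 1187 and 1019 counts) in the controls, against 13.0, 5.31 and 32.2 CPM (279, 137 and 758 counts) after depletion. The highest shOSGEP library lay above the lowest shCtr library, and the range over the 6 libraries was 11.0-fold. Means were 43.2 ± 17.3 and 16.8 ± 13.8 CPM (SD, n = 3 each), a Log2FC of -1.36 (SE 0.686, edgeR unadjusted p = 0.0809, adjusted p = 1.00, exact permutation p = 0.2, where 3 libraries against 3 cannot give less than 0.1).

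The log2 ratios of Bag3 within replicate numbers were -0.91, -3.46 and -0.55, and the Log2FC was -0.65 without both libraries of replicate 2. shOSGEP replicate 2, in which Bag3 was lowest, was also the library with the lowest Osgep (0.542 CPM) and the lowest melanocyte marker sum (3551 CPM), and the part of these in the Bag3 value was not tested. Bag3 was the one member called at the threshold of the study by DESeq2 (Log2FC -1.39, unadjusted p = 0.0492, adjusted p = 1.00, where 2.92% of all genes were called). It was also called by limma-voom with sample quality weights (Log2FC -1.14, unadjusted p = 0.0364, adjusted p = 1.00, 4.42% of all genes) and by edgeR with every gene of at least 1 count retained (Log2FC -1.34, unadjusted p = 0.0441, adjusted p = 0.959, 2.75% of 21821 genes).

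Leaving out shOSGEP replicate 3, the depleted library with the most Bag3, likewise brought Bag3 past that threshold (edgeR Log2FC -2.25, unadjusted p = 0.0145, adjusted p = 1.00, 2.98% of 13105 genes), as did leaving out both libraries of replicate 3 (edgeR Log2FC -2.19, unadjusted p = 0.0468, adjusted p = 1.00, 1.24% of 13096 genes). In none of these fits was its adjusted p under 0.05.

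Dnajb1 (ENSMUSG00000005483, chromosome 8, 83608193 to 83612653, plus strand, 3 exons) encodes the HSP40 that delivers clients to HSP70. It was at 36.5, 83.4 and 43.9 CPM in the controls, against 28.5, 48.1 and 34.9 CPM after depletion, from 612 to 1696 counts. In CPM replicate 2 was the highest library in both groups, and shOSGEP replicate 2 exceeded shCtr replicates 1 and 3. By TPM shCtr replicate 3 was the highest: the shCtr values were 27.4, 32.4 and 33.5 TPM and the shOSGEP values 23.4, 29.4 and 25.7 TPM. With means of 54.6 ± 25.2 and 37.2 ± 10.0 CPM (SD, n = 3 each), the Log2FC was -0.55 (SE 0.471, edgeR unadjusted p = 0.272, exact permutation p = 0.4). It was -0.11 without shCtr replicate 2.

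Hsph1 (ENSMUSG00000029657, chromosome 5, 149614287 to 149636376, minus strand, 18 exons) encodes HSP110, which drives the disaggregation of protein together with HSP70 and HSP40. It was at 148, 123 and 167 CPM in the controls, against 111, 71.7 and 124 CPM after depletion, from 1850 to 3612 counts. In CPM the overlap between groups was slight, with the highest shOSGEP value (124 CPM) just above the lowest shCtr value (123 CPM). By TPM it was wider: the shCtr values were 87.5, 37.8 and 100 TPM and the shOSGEP values 72.1, 34.5 and 72.0 TPM. Means were 146 ± 21.7 and 102 ± 27.4 CPM (SD, n = 3 each), and the Log2FC was -0.51 (SE 0.395, edgeR unadjusted p = 0.232, exact permutation p = 0.2).

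Of the members lower in every same-numbered comparison, Hsph1 had the most even log2 ratios, -0.41, -0.78 and -0.42. Its Log2FC stayed between -0.71 and -0.29 over the alternatives and was -0.41 without both libraries of replicate 2. When a trend on GC content and transcript length was removed from each library, Hsph1 passed the threshold of the study in edgeR (Log2FC -0.70, unadjusted p = 0.0451, adjusted p = 0.805), where 5.46% of all genes did. With the replicate block added to that fit, Hsph1 (Log2FC -0.71, unadjusted p = 0.0462, adjusted p = 0.534) and Bag3 (Log2FC -1.41, unadjusted p = 0.0302, adjusted p = 0.534) passed it in edgeR, as did 6.81% of all genes.

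The HSP90 pair went different ways across libraries. Hsp90aa1 (ENSMUSG00000021270, chromosome 12, 110690605 to 110702728, minus strand, 11 exons), the stress-inducible form, was at 1827, 380 and 1203 CPM in the controls, against 1561, 605 and 1219 CPM after depletion. The low value in each group was replicate 2. With means of 1137 ± 726 and 1128 ± 484 CPM (SD, n = 3 each), the Log2FC was -0.01 (SE 0.652, edgeR unadjusted p = 0.987, exact permutation p = 0.8), and it ranged from -0.43 to 0.51 over the alternatives. Of the 31-base words of its transcripts 51.5% recur in other genes, mostly processed pseudogenes, of which Gm12346 held 271 counts over all libraries.

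Hsp90ab1 (ENSMUSG00000023944, chromosome 17, 45567775 to 45573271, minus strand, 11 exons), the constitutive form, was at 2769, 4898 and 4637 CPM in the controls, against 2816, 3220 and 4335 CPM after depletion. In CPM replicate 1 was the lowest library in both groups, and the shOSGEP range lay inside the shCtr range. By TPM replicate 2 was the lowest in both, at 2265 TPM in shCtr and 2336 TPM in shOSGEP. The means by TPM were 2984 in shCtr and 2959 in shOSGEP. In CPM the means were 4101 ± 1161 and 3457 ± 787 (SD, n = 3 each), and the Log2FC was -0.25 (SE 0.508, edgeR unadjusted p = 0.640, exact permutation p = 0.6), or -0.05 without both libraries of replicate 2.

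Hspa8 (ENSMUSG00000015656, chromosome 9, 40800984 to 40810087, plus strand, 9 exons), the constitutive HSP70, was at 3300, 7470 and 4098 CPM in the controls, against 2825, 4176 and 3755 CPM after depletion. In CPM shCtr replicate 2 lay well above the rest, and the other 5 libraries ranged from 2825 to 4176 CPM. By TPM it did not stand out: the shCtr values were 3105, 3637 and 3917 TPM and the shOSGEP values 2909, 3189 and 3453 TPM. The means of 4956 ± 2214 and 3586 ± 692 CPM (SD, n = 3 each) gave a Log2FC of -0.47 (SE 0.541, edgeR unadjusted p = 0.413, exact permutation p = 0.5), which was -0.05 without shCtr replicate 2. Of its 31-base words 44.8% recur elsewhere, mainly in pseudogenes such as Gm15459 (1344 counts over all libraries), a small share beside 60718 to 151961 counts per library of Hspa8 itself.

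Hspb1 (ENSMUSG00000004951, chromosome 5, 135887919 to 135889563, plus strand, 2 exons) encodes the small heat shock protein HSP25, which holds unfolded clients without using ATP. It was at 1.02, 4.57 and 2.21 CPM (24, 93 and 48 counts) in the controls, against 1.21, 11.2 and 4.07 CPM (26, 290 and 96 counts) after depletion. Replicate 2 was highest and replicate 1 lowest in both groups, and each shOSGEP library was above the shCtr library of its number. Means were 2.6 ± 1.81 and 5.51 ± 5.17 CPM (SD, n = 3 each), a Log2FC of 1.08 (SE 0.878, edgeR unadjusted p = 0.251, exact permutation p = 0.5).

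The within-number log2 ratios of Hspb1 were 0.25, 1.30 and 0.88. The size of the Log2FC varied with the libraries of replicate 2: it was 0.06 without shOSGEP replicate 2, 1.77 without shCtr replicate 2 and 0.72 without both. The pseudogene Hsp25-ps1 and the gene Gm9817 together hold 55.4% of the 31-base words of Hspb1 but were listed at 0 in all libraries.

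**Figure D2:**
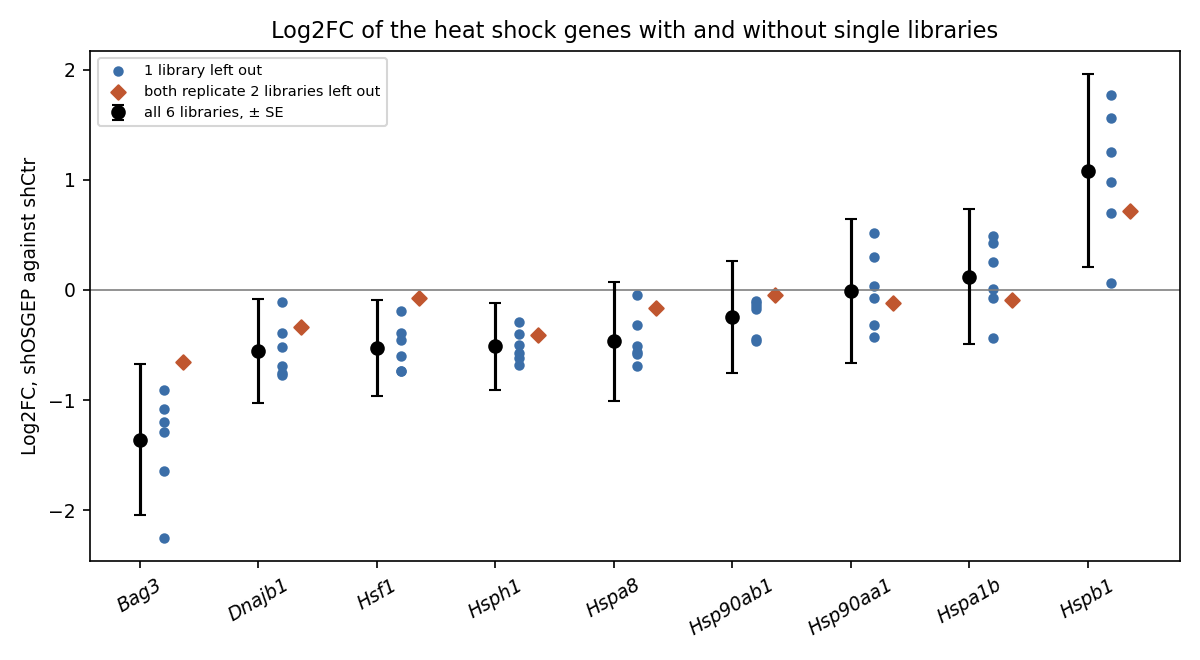
Log2FC of shOSGEP against shCtr for the 9 tested members, with all 6 libraries (black, ± SE of the edgeR fit), with 1 library left out (blue, 6 fits per gene) and without both libraries of replicate 2 (orange diamonds). Hspb1 is at 0.06 in 1 blue fit, and Hsf1 moves from -0.53 to -0.08 at the diamond. Hsf1, Bag3, Hsph1, Dnajb1, Hsp90ab1 and Hspa8 stay negative in all fits drawn.

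Ratios within a library, which do not depend on library scaling, asked whether the inducible paralogue gained on the constitutive one. They were not corrected for GC content, which is 58.1% in Hspa1b, 51.2% in Hspa8, 43.7% in Hsp90aa1 and 51.0% in Hsp90ab1. For shCtr replicate 2 against the other shCtr libraries, the trend on GC content and length was -1.66 at Hsp90aa1 and 0.37 at Hsp90ab1. Its part in the ratios was not tested. The log2 ratio of Hspa1a plus Hspa1b to Hspa8 (counts plus 1) was -10.49, -10.66 and -10.58 in shCtr and -10.57, -9.51 and -10.39 in shOSGEP. The 3 control libraries and shOSGEP replicate 1 lay close together, and shOSGEP replicate 2 stood above them. The means differed by 0.42, with an exact two-sided permutation p = 0.2 (0.4 after Benjamini-Hochberg adjustment over the 2 ratios), a higher ratio in 2 of 3 same-numbered comparisons, and a difference of 0.10 without shOSGEP replicate 2.

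For Hsp90aa1 over Hsp90ab1 the log2 ratio was -0.60, -3.69 and -1.95 in shCtr and -0.85, -2.41 and -1.83 in shOSGEP. In both groups replicate 1 was highest and replicate 2 lowest. The means differed by 0.38 (exact permutation p = 0.8, adjusted p = 0.8), and the difference was -0.42 without shCtr replicate 2. Neither ratio separated the groups beyond the spread of the libraries.

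**Figure D3:**
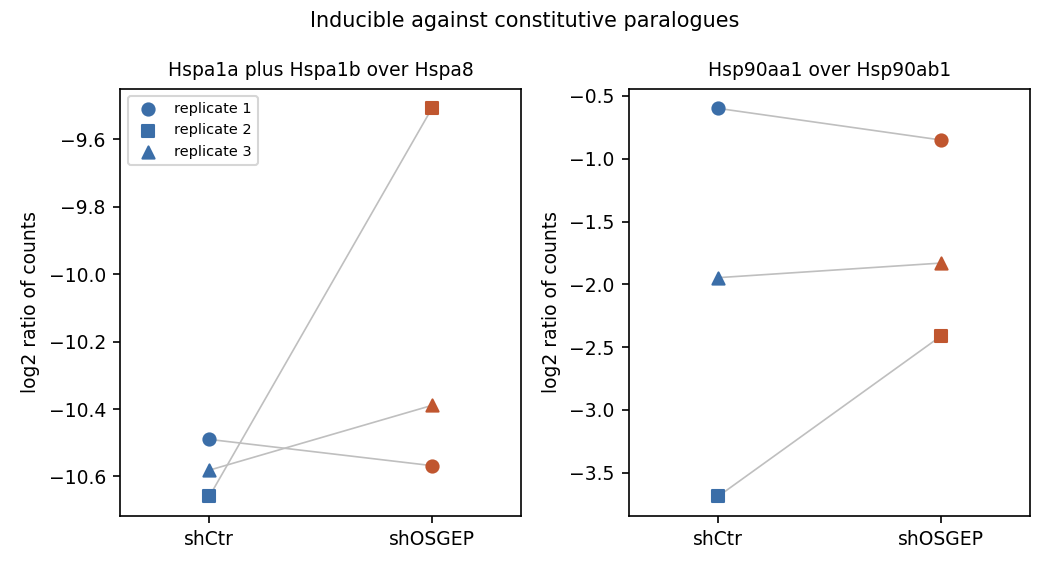
Log2 ratio of counts within each library, for the inducible over the constitutive HSP70 (left) and for the inducible over the constitutive HSP90 (right), with lines joining libraries of the same replicate number. On the left shOSGEP replicate 2 (-9.51) is the point away from the others, and on the right the replicate numbers lie farther apart (-3.69 to -0.60 in shCtr) than the means of the groups, which differ by 0.38.

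The departure of shCtr replicate 2 from its group followed the GC content of the members' transcripts. Measured in log2 CPM against the mean of shCtr replicates 1 and 3, it was -1.96 for Hsp90aa1, the member with the least GC (43.7%), and -0.35 for Hsph1 (47.4%). It was 0.45 for Hsp90ab1 (51.0%), 1.02 for Hspa8 (51.2%) and 1.06 for Dnajb1 (52.7%). The members richest in GC were all above, by 0.78 for Bag3 (56.1%), 0.86 for Hsf1 (57.8%), 0.89 for Hspa1b (58.1%) and 1.55 for Hspb1 (61.7%). Spearman's rho over these 9 genes, which share the same libraries, was 0.75.

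The same slope ran through the whole table. A smooth trend on GC content and transcript length took up 51.1%, 63.7% and 24.4% of the variance between genes in the deviations of shCtr replicates 1, 2 and 3, and 54.3%, 17.5% and 22.1% in those of shOSGEP replicates 1, 2 and 3. For shCtr replicate 2 against the other shCtr libraries, the value of that trend was -1.66 at Hsp90aa1 and 2.01 at Hspb1. The trend alone put the difference between groups at 0.44 for Hsp90aa1, 0.17 for Hsph1 and -0.24 for Hsf1. With it removed, the Log2FC was -0.23 for Hsf1, -0.23 for Hsp90aa1, -1.12 for Bag3 and 1.30 for Hspb1, and the median of the members was -0.23, against -0.05 over all genes.

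**Figure D4:**
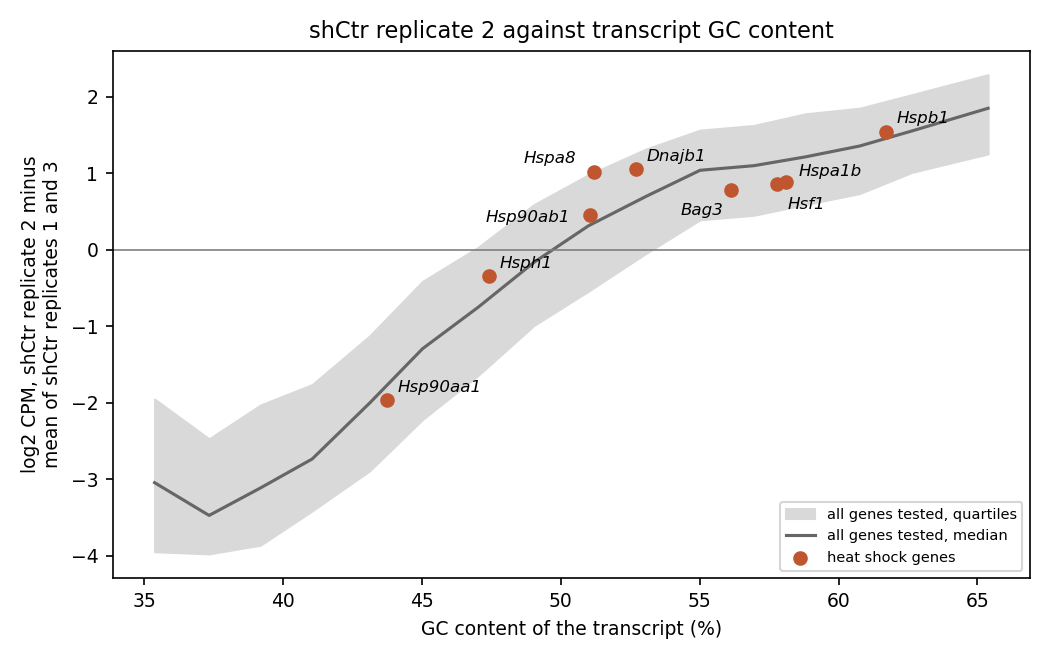
Log2 CPM of shCtr replicate 2 minus the mean of shCtr replicates 1 and 3 (vertical axis) against transcript GC content in percent (horizontal axis), for the 9 members (orange) over the median (line) and quartiles (grey) of all genes tested. Members lie near the line of all genes, from -1.96 for Hsp90aa1 to 1.55 for Hspb1.

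The other chaperone systems were read from 7 lists of 100 genes in all, of which 94 were tested. None passed an adjusted p under 0.05 or the threshold of the study in edgeR without a block, where the smallest unadjusted p was 0.105, and 0 of 94 had an unadjusted p under 0.05. Fitted values were higher in shOSGEP for 32 and lower for 62, with a median Log2FC of -0.10. In 3 of 3 same-numbered comparisons 23 genes were lower and 8 higher, against 17.2% and 17.6% of all genes, and 6 of 94 did not overlap between groups, against 6.36%.

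Nearest to HSF1 are the other heat shock factors and the genes that act on HSF1, of which 5 of 8 were tested, 2 with higher and 3 with lower values and a median Log2FC of -0.28. Hsf4, a heat shock factor known from the lens, had a Log2FC of -1.07 (SE 0.716, unadjusted p = 0.171, adjusted p = 1.00 by edgeR). Dedd2 had a Log2FC of -0.62 (SE 0.631, unadjusted p = 0.351, adjusted p = 1.00 by edgeR). Ier5, an immediate early gene whose product promotes dephosphorylation and activity of HSF1, did not overlap between groups, at 9.43, 8.31 and 8.99 CPM in the controls, against 6.75, 8.25 and 6.96 CPM after depletion, yet the gap was narrow and its Log2FC of -0.28 (SE 0.425, unadjusted p = 0.523, adjusted p = 1.00 by edgeR) lay within its error.

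The wider list of genes that HSF1 induces had 17 of 19 tested, 8 higher and 9 lower, with a median Log2FC of -0.0020. Hspb6, a small heat shock gene, was at 7.78, 24.1 and 11.0 CPM in the controls, against 11.0, 93.0 and 19.6 CPM after depletion, with a Log2FC of 1.53 (SE 0.839, unadjusted p = 0.105, adjusted p = 1.00 by edgeR). With the replicate block Hspb6 passed the threshold of the study (Log2FC 1.09, unadjusted p = 0.0346, adjusted p = 0.741 by edgeR), as did 2.94% of all genes and no member. Its highest value was in shOSGEP replicate 2, the library in which Hspb1 was also highest. Zfand2a, which encodes the arsenite-inducible protein AIRAP and is a sensitive HSF1 target, did not overlap between groups, at 20.9, 10.3 and 24.9 CPM in the controls, against 27.9, 46.0 and 27.7 CPM after depletion (Log2FC 0.86, SE 0.488, unadjusted p = 0.115, adjusted p = 1.00 by edgeR). Fkbp4, an HSP90 immunophilin, was at 2604 CPM in shCtr replicate 2 and between 518 and 963 CPM in the other 5 libraries (Log2FC -1.01, SE 0.625, unadjusted p = 0.144, adjusted p = 1.00 by edgeR).

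The co-chaperones of HSP90 had the lowest median of the 7 lists, -0.52, with 12 of 15 tested genes lower. Here too replicate 2 was the most negative, with median log2 ratios of -0.19, -1.25 and -2.5e-05 in replicates 1 to 3. Ppp5c, the phosphatase bound to HSP90, had a Log2FC of -0.82 (SE 0.511, unadjusted p = 0.144, adjusted p = 1.00 by edgeR), Aarsd1 of -0.77 and Nudc, a p23-like co-chaperone, of -0.59. In the constitutive HSP70 system 11 of 19 tested genes were lower and 8 higher, with a median Log2FC of -0.02. There, the exchange factor Hspbp1 had a Log2FC of -1.21 (SE 0.764, unadjusted p = 0.151, adjusted p = 1.00 by edgeR), the chaperone-linked ubiquitin ligase Stub1 of -0.89 and the HSP40 gene Dnajb5 of 0.78.

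Chaperones of other compartments were spread about 0. In the endoplasmic reticulum 10 of 14 genes were lower, with a median Log2FC of -0.06, led by Sdf2l1 (-0.96), the lectin chaperone Calr (-0.80) and Creld2 (-0.51). Of 10 mitochondrial chaperones and proteases 8 were lower, with a median of -0.08, among them the proteases Htra2 (-0.48) and Clpp (-0.51). The mitochondrial HSP70, Hspa9, was higher in each shOSGEP library than in any shCtr library, at 427, 308 and 483 CPM against 645, 752 and 530 CPM, with a Log2FC of 0.66 (SE 0.411, unadjusted p = 0.144, adjusted p = 1.00 by edgeR). The chaperonin CCT/TRiC and prefoldin of the cytosol, which fold actin and tubulin, had 9 of 14 lower, with a median of -0.18. Of the 14, 7 were lower in 3 of 3 same-numbered comparisons, against 17.2% of all genes. Among the lower genes were Cct3 (-0.69) and Cct5 (-0.48), while the prefoldin subunit Pfdn4 was at 0.80.

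**Figure D5:**
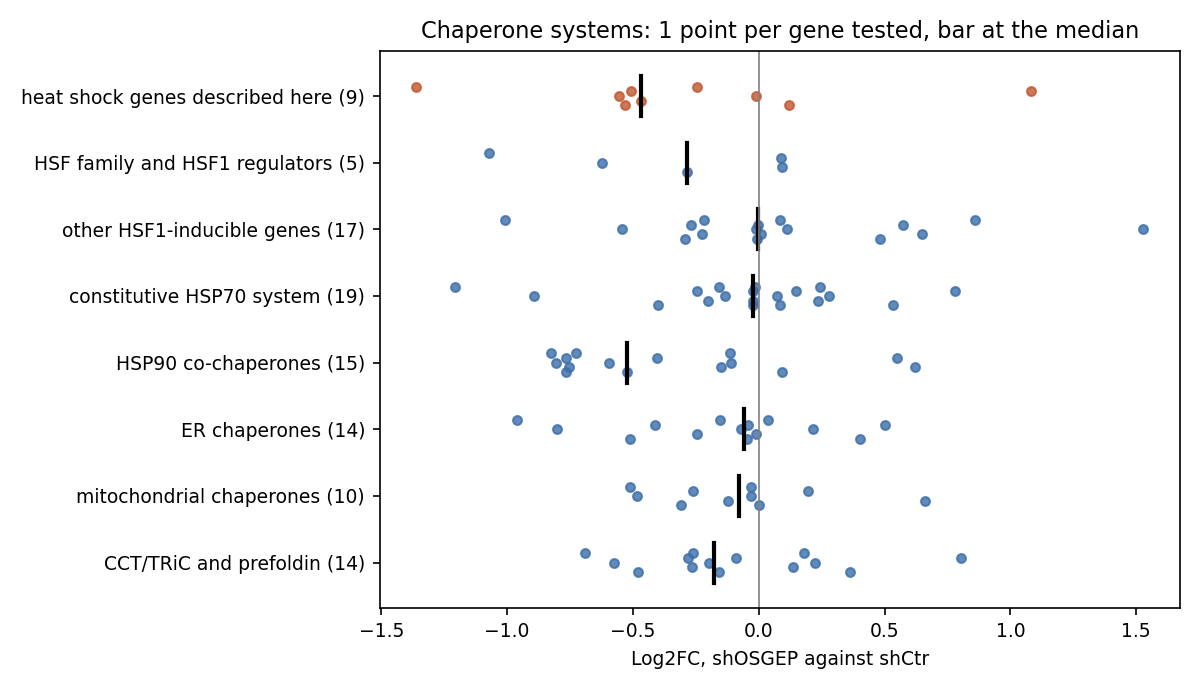
Log2FC of shOSGEP against shCtr for each tested gene of the heat shock set (orange) and of the 7 other chaperone lists (blue), 1 point per gene with the number tested in brackets and a bar at the median. The medians of the heat shock set (-0.47) and of the HSP90 co-chaperones (-0.52) are the lowest, and every list has genes on both sides of 0.

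Across the 6 libraries, the profiles most like that of Hsf1 in log2 CPM belonged to Atg9a (Pearson r 0.999), Abhd14b (0.999), Por (0.997), Ip6k3 (0.997) and Ppp1r9b (0.997). Members were less like it, with r of 0.85 for Bag3, 0.85 for Hsp90ab1, 0.84 for Hspa8, 0.75 for Dnajb1, 0.43 for Hsph1, 0.26 for Hspa1b, 0.14 for Hspb1 and -0.57 for Hsp90aa1. The mean profile of the other 8 tested members was closest to Llgl1 (0.996), Sh2b2 (0.994), Fam129b (0.994), Csdc2 (0.992) and Atg13 (0.991). These values describe 6 libraries that share 1 departing control, and carry no test.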

How the data were processed

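PolyA RNA of 6 B16F10 cultures (shCtr and shOSGEP, n = 3 each) was sequenced in paired reads with the Illumina TruSeq V2 kit, whose counting is not stated to use strand. Per the submitters' processing notes and the study's methods, the authors trimmed reads with TrimGalore, aligned them to GRCm38 with STAR 2.6.1d and quantified genes with Salmon 1.4.0. The deposited values are estimated counts per gene, written as whole numbers, with no normalization or filter. Salmon shares reads among near-identical copies by likelihood. The annotation release was not given in the sources used here. All 6 columns of values were used (0 left out).

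Groups and replicate numbers came from the labels. Genes were kept with filterByExpr (minimum count 10, total 15), scaled by TMM and tested in edgeR 4.0.16 (R 4.3.3) by its quasi-likelihood F-test, two-sided, without a block, adjusted by Benjamini-Hochberg over 12669 genes. Unadjusted and adjusted p-values come from this fit over the whole table unless another test, filter, block, offset or set of libraries is named. The other tests include those of DESeq2 1.42.0 and limma 3.58.1. Standard errors are the Log2FC divided by the square root of F. Permutation tests compared mean log2 CPM exactly, two-sided. TPM was computed from the counts and transcript lengths of GENCODE M21 (GRCm38), found for 55141 genes (99.4%), which also gave positions. Words of 31 bases were compared over all transcripts. GC trends were natural splines (5 degrees of freedom for GC content, 3 for length).

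Same-numbered libraries deviated together from their group means (correlations 0.811, 0.557 and 0.196), above a limit of 0.1 for every pair. The numbers were therefore taken to pair the libraries in the block and in the same-numbered comparisons. The main fit and the permutation tests did not use this pairing. What a number marks is not stated beyond 3 independent infections. The highest correlation between different numbers was 0.491, for shCtr replicate 3 with shOSGEP replicate 1, above the 0.196 of the replicate 3 pair. shCtr replicate 2 with shOSGEP replicate 3 (0.138) also passed the limit, so the pairing of replicate 3 is the least certain.

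Members, lists and tests were chosen with earlier results of these data known. The genes named are all members, Osgep, in each list the 3 of smallest p, and the 5 profiles most like Hsf1 and like the other members. Scripts were tested on simulated data. Alternatives were other scalings, filters and tests, the block, GC and length offsets, the HSP70 pair summed, and leaving libraries out.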

Additional observations from a re-analysis of the deposited data

How the results depend on the processing

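Over the alternatives the number of members at an adjusted p under 0.05 was 0 throughout, also at 0.1, and the smallest adjusted p of a member in any of them was 0.534. The count of members past the threshold of the study was 1 with DESeq2, with limma-voom and sample quality weights, with at least 1 count in some library and with GC and length offsets, 2 with offsets and the replicate block together, and 0 to 1 when libraries were left out, the 1 being Bag3 without shOSGEP replicate 3 or without both libraries of replicate 3. For the wider lists that count was 1 under the any-count filter, the replicate block, the offsets and both together, and 0 to 1 when libraries were left out, the gene in each case being Hspb6 (Log2FC 1.09, edgeR unadjusted p = 0.0346 with the replicate block). Added to the fit with offsets, the block also brought Bag3 past the threshold of the study. It changed no other call among the members and the wider lists. The Log2FC of Hspa1b was -0.0029 with limma-voom and -0.43 to 0.49 when libraries were left out. That of Hsp90aa1 was 0.060 with upper-quartile scaling, 0.0083 with at least 10 counts in every library, 0.15 with the replicate block, and -0.43 to 0.51 when libraries were left out. The log2 ratio of Hsp90aa1 to Hsp90ab1 differed by -0.42 to 1.12 when libraries were left out. The causes were not tested. Upper-quartile scaling moved the median of all genes from -0.03 to 0.07 and that of the members from -0.47 to -0.33. Of the alternative values, 278 were labelled the same, 14 reversed, 13 moved and 1 stronger. A median was labelled the same within 0.364 of its main value, whatever its sign. This includes the wider lists with upper-quartile scaling, whose median was 0.0084 against -0.10. All Log2FC of Hsf1, Bag3, Hsph1, Dnajb1, Hsp90ab1 and Hspa8 stayed negative. Hspa1b and Hspb1 rest on 24 to 290 counts per library, which limits their precision. Only mRNA was measured, with 3 libraries a group.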
